A study of Mus musculus with 10 samples.

Results

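The fatty acid uptake and oxidation genes are 41 genes chosen by name, from the import of fatty acids into the cell to the transfer of their electrons to the respiratory chain, together with their transcriptional regulators. All 41 were found, once each, among the 23195 genes of a table that compares whole hearts of wild-type (*Nos1ap*+/+) and *Nos1ap* null (*Nos1ap* tm1d/tm1d) male mouse embryos at embryonic day 13.5 (E13.5). Stranded polyA RNA-seq had been performed on 5 hearts of each genotype, with the strain labelled C57BL6/J. The tm1d allele lacks a coding exon of *Nos1ap*, a scaffold protein that binds neuronal nitric oxide synthase, in every cell of the embryo and not only in the heart. It was made from a knockout-first allele by Flp and then Cre recombination, and has lost both the lacZ and the neomycin cassettes. The line had been backcrossed to C57BL/6J, and the wild-type embryos carry no engineered allele of the gene.

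Fatty acids enter a cardiomyocyte from the capillary after lipoprotein lipase has released them, are carried by transporters and binding proteins, and are joined to coenzyme A. Carnitine palmitoyltransferases then carry the acyl chains into the mitochondrion, where the beta-oxidation spiral shortens them and passes electrons to the respiratory chain. The fetal heart is known to rely largely on glucose and lactate, and the heart changes to fatty acids after birth, when several enzymes are exchanged for other isoforms: *Cpt1a* is the isoform known from fetal heart and liver, and *Cpt1b* the isoform of adult muscle. The peroxisome proliferator-activated receptors (PPARs), the estrogen-related receptor *Esrra* and their coactivators *Ppargc1a* and *Ppargc1b* are known to drive the genes of this pathway.

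PPARs and ESRRA bind DNA at half-sites with the letters AGGTCA. RefSeq promoters (GRCm38.p6, 250 bases before to 50 bases after a transcription start) were found for 34 of the 41 genes, with 41 starts in all. The letters AGGTCA, on either strand, stood in 10 of these 41 promoters (24.4%) and in 16.3% of 32851 promoters of all genes. The longer form TCAAGGTCA, which contains AGGTCA, stood in 1 of the 41 (2.44%) and in 0.423% of all promoters. A direct repeat of AGGTCA with 1 base between both copies stood in 0 of the 41 and in 0.0396% of all promoters. A match of letters is a description of the sequence and no sign of binding. The promoters of *Acadm* (chr3:153944594-153944893, minus strand), *Cpt1a* (chr19:3323051-3323350, plus strand) and the first of 3 starts of *Acsl6* (chr11:54303574-54303873, plus strand) follow, 5′ to 3′. They are shown because *Acadm* and *Cpt1a* are textbook targets of PPARs, and *Acsl6* had the lowest ratio between the genotypes and the longer form. All 3 contain AGGTCA, unlike most of the 41 promoters. Those of *Fabp3*, *Acadl*, *Cpt2* and *Hadha*, for example, held 0 matches. Capitals mark AGGTCA or TCAAGGTCA, here read as the reverse complements TGACCT and TGACCTTGA.
Acadm: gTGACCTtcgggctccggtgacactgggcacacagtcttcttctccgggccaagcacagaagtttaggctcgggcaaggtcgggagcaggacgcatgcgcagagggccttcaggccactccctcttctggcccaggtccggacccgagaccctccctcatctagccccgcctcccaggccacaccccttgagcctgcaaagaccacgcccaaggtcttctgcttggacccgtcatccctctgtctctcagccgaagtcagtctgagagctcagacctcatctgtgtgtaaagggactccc
Cpt1a: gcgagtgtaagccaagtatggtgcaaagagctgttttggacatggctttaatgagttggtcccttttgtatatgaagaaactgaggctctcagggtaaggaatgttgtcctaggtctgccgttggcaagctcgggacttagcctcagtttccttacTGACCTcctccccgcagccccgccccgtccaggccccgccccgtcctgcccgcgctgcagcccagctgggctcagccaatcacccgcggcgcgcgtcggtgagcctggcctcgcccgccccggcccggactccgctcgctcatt
Acsl6: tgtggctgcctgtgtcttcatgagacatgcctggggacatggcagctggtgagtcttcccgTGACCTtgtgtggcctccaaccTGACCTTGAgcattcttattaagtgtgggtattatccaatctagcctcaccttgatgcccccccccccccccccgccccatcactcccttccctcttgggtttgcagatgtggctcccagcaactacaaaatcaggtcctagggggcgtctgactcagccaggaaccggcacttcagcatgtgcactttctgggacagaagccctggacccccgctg

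The files held a mean normalized count for each gene and genotype, that is, the read count divided by the library's size factor, averaged over 5 libraries. Whole read counts of single libraries were worked back from these means where only 1 set of counts gave the mean. Where several could, a set was accepted if it was the only one found within a limited distance of equal levels. Libraries are numbered 1 to 5 within a genotype from the largest to the smallest size factor, which is not the replicate number of the labels. Size factors of the 10 libraries stood between 0.918 and 1.15. Read pairs assigned to the listed genes were estimated at 11328233 to 14023004 a library, from the summed means of its genotype and its size factor. *Nos1ap* itself, by these counts, stood between 126 and 161 in the wild-type libraries and between 31.1 and 44.4 in the null libraries, with a log2 fold change of −1.83 ± 0.121 (SE; limma, adjusted *P* = 7.81e-09). The 8 cardiomyocyte markers, *Myh6* and *Tnnt2* among them, were all present, and sums of their means were 398092.2 in wild type and 404836.8 in null. Wild-type library 3 stood apart: 6 neuron and glia markers summed to 2214 there, against 252.3 to 330.1 in the other wild-type libraries and 214 to 302 in the null libraries. Erythroid markers were higher in the null means, with 6 of 6 above wild type and sums of 130817.2 and 195689.5. The part of these lists in the results on the fatty acid genes was not tested, beyond the values without library 3 given below.

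No fatty acid gene passed the test between the genotypes. Counts of all 10 libraries were available for 21 of the 41 genes, and 0 of these 21 had an adjusted *P* under 0.05 (limma on log2 normalized counts plus 1; 0.0291% of the 10299 protein-coding genes tested passed). At an unadjusted *P* under 0.05 the count was also 0 of 21, against 3.52% of all genes tested, and the smallest unadjusted *P* was 0.135 for *Slc27a1* (adjusted *P* = 0.998). The 5 wild-type and 5 null libraries overlapped for each of the 21 genes, where 0.786% of all genes tested did not overlap. For 15 of the 21 genes, the 95% confidence interval of the log2 fold change lay within 0.25 on either side of 0, which was so for 56.4% of all genes tested. These 15 comprise all 13 genes whose counts are the set nearest to equal levels, a choice that favours a small spread, and 2 (*Ppargc1b* and *Mlycd*) of the 8 genes with only 1 possible set. The interval's half-width was 0.117 at the median, from 0.0861 for *Eci2* to 0.727 for *Acsl6*. In whole-heart RNA, fewer cells of a type and less RNA per cell cannot be told apart.

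The other 20 genes, with means from 774.5 (*Cpt1a*, null) to 4195 (*Hadha*, null), were not in this test, since counts could not be settled in both genotypes. For 3 of them, *Cpt1a*, *Acadvl* and *Echs1*, a wider rule for accepting counts gave a test, described below. Over all 41 genes, the log2 ratio of the group means (null over wild type, each plus 1) was above 0 for 20 genes (49.5% of all protein-coding genes with means of 10 or more) and below 0 for 21, with a median of −0.00678. The median over these 13299 protein-coding genes was −0.000927. An absolute log2 ratio over 0.25 was found for 2 of the 41 genes (4.88%), *Acsl6* and *Pparg*, and for 6.44% of all protein-coding genes with a mean of at least 10. Both were lower in null, as were 4.13% of all, and 0 of the 41 were higher by as much, against 2.32% of all. Both had means under 20, and no gene of the 41 with a mean of at least 50 reached 0.25. The remaining 39 ratios lay between −0.11 for *Fabp4* and 0.11 for *Ppargc1a*. The 41 genes summed to 46423.7 normalized counts in wild type (0.381% of all genes) and to 46981.4 in null (0.381%).

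**Figure D1:**
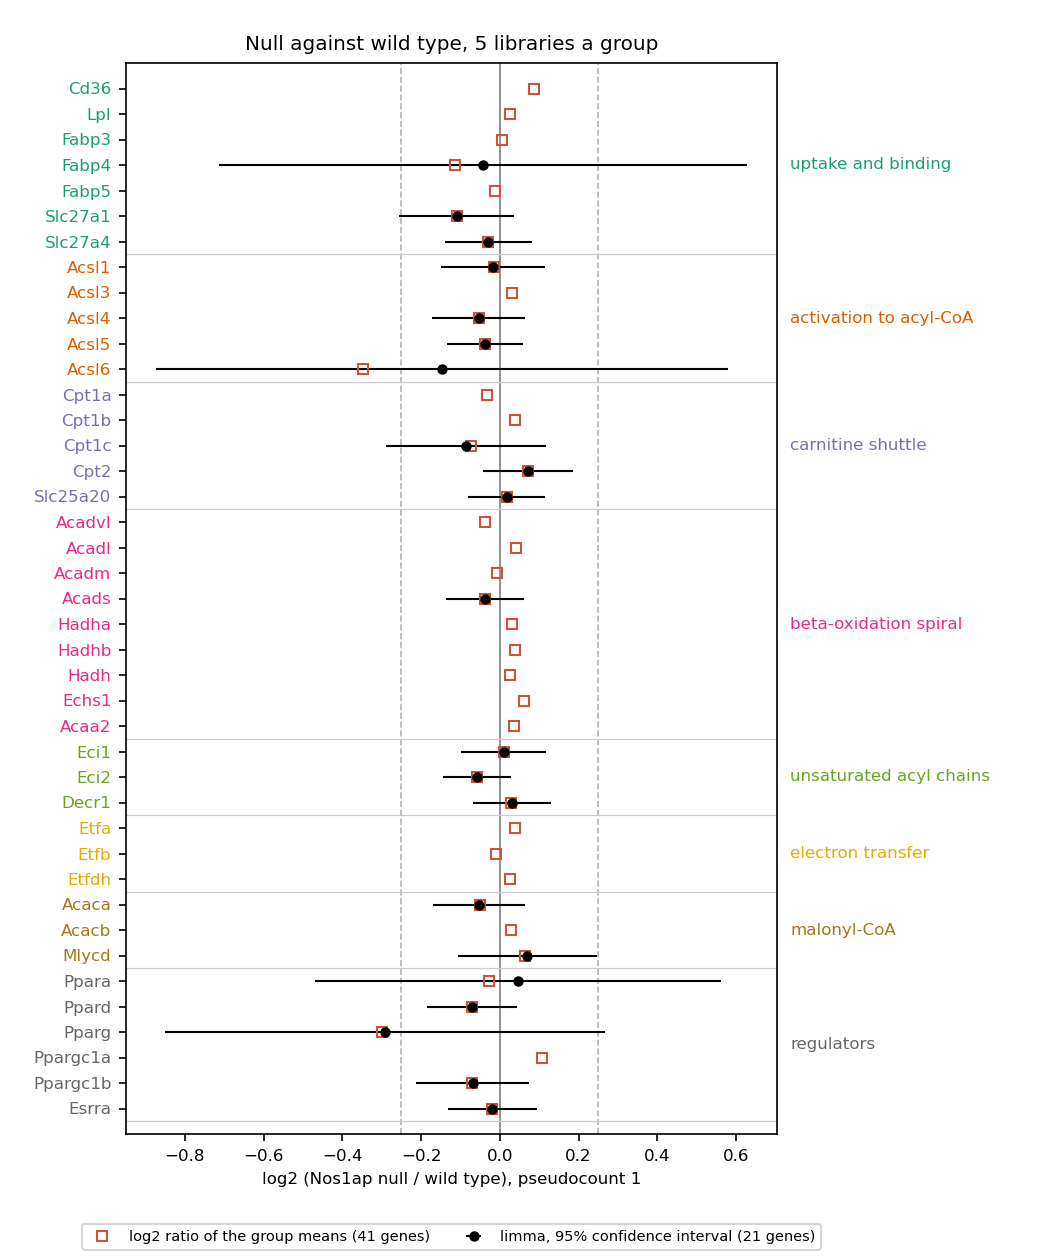
Log2 ratio of *Nos1ap* null to wild type for the 41 genes, in rows by role. Red squares show the ratio of the group means plus 1, black points and lines the limma estimate and its 95% confidence interval for the 21 genes with counts of every library, and dashed lines 0.25 on either side of 0. All intervals cross 0, and only the squares of *Acsl6* and *Pparg* lie past 0.25.

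Levels of the genes were compared per kilobase of exon, in mean normalized counts per kb. With the union of all exons as length, *Fabp3*, the fatty acid binding protein of heart muscle, had the highest level of the 41 genes in both genotypes, 2923 per kb in wild type and 2933 per kb in null. *Acadl*, the long-chain acyl-CoA dehydrogenase, followed with 1900 and 1955 per kb, and *Etfb*, a subunit of the flavoprotein that takes up electrons from the dehydrogenases, with 1254 and 1245 per kb. The lowest level was that of *Acsl6*, an acyl-CoA synthetase known mainly from brain, with 1.32 per kb in wild type and 1.01 per kb in null. *Ppara* (5.46 and 5.35 per kb) and *Pparg* (6.15 and 4.94 per kb) were the next lowest, and exchanged places between the genotypes. The difference between these neighbours is smaller than their spread between libraries, given below.

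The length used decides part of this order. The union of exons also counts retained introns of minor transcripts, and for *Fabp4* it was 4.49 kb against 0.896 kb for the principal coding transcript. Per kb of principal transcript, *Fabp5*, a binding protein of endothelium and epidermis, moved from rank 7 to rank 3 with 1902 per kb in wild type, and *Hadhb* from rank 11 to rank 5 with 1296 per kb. *Fabp3* (rank 1), *Acadl* (rank 2) and *Acsl6* (rank 41) had the same ranks under both lengths.

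**Figure D2:**
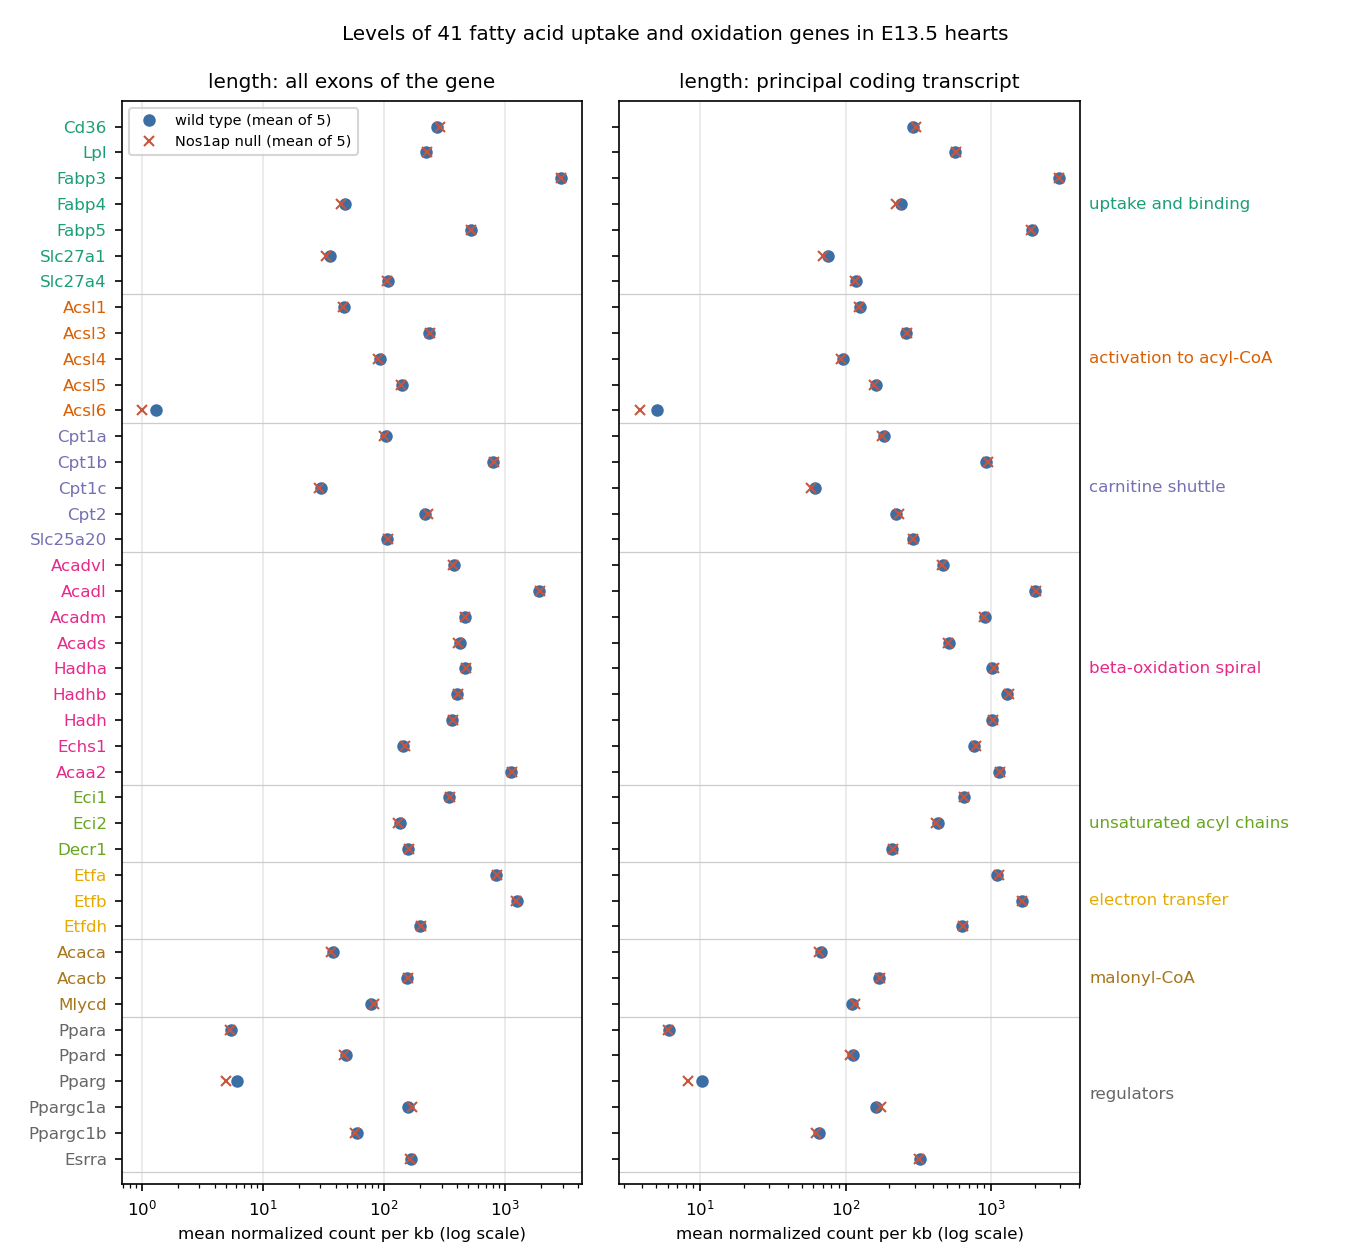
Mean normalized count per kb on a log axis for the 41 genes in wild type (blue points) and *Nos1ap* null (red crosses), each the mean of 5 hearts. The left panel divides by the union of exons and the right panel by the principal coding transcript. *Fabp3* is highest at 2923 per kb in wild type in both panels, *Acsl6* lowest, and the markers of both genotypes lie over each other for most genes.

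Genes of uptake and binding comprise the scavenger receptor *Cd36*, lipoprotein lipase (*Lpl*), 3 binding proteins and the transport proteins *Slc27a1* and *Slc27a4*. By group means, 3 of the 7 were higher in null and 4 lower, with log2 ratios from −0.11 to 0.09. *Cd36* had a mean of 981 in wild type and 1042 in null, *Lpl* 2333 and 2375, *Fabp3* 2405 and 2414, and *Fabp5* 1877 and 1862, all without a test. The table also lists *Fabp3-ps1*, a pseudogene copy of *Fabp3*, with means of 25.4 and 20.9, so that some reads may be divided between both.

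*Fabp4*, a binding protein of adipocytes, capillary endothelium and macrophages (chr3:10204088-10208576, minus strand), had the widest interval of the tested genes with a mean of at least 50. Its normalized counts in wild-type libraries 1 to 5 were 153, 355, 122, 213 and 231, and in null libraries 1 to 5 they were 198, 133, 210, 222 and 230. Wild-type library 2 was the highest of all 10, and the null values lay within the wild-type range. The means were 214.8 ± 90 (SD, n = 5) in wild type and 198.5 ± 38.7 (SD, n = 5) in null, and the log2 fold change was −0.04 ± 0.293 (SE; limma, adjusted *P* = 0.998). Without wild-type library 2 the log2 ratio of the means moved from −0.11 to 0.14, and without wild-type library 3, the lowest, to −0.26. Of 5 adipocyte markers, *Cidec* and *Cfd* were not listed and *Adipoq*, *Plin1* and *Retn* summed to 0 to 2.61 in the wild-type and 0 to 3.22 in the null libraries. Macrophage markers (5 of 5) summed to 745 to 806 and 728 to 816, and the endothelial marker with counts, *Emcn*, stood at 714 in wild-type library 2, within the wild-type range of 608 to 717. The sums of the 6 endothelial marker means were 9787 and 10094. Liver markers (4 of 5 listed) summed to 75.5 in wild-type library 2, the highest of the 10 libraries. They summed to 15.3 to 58.8 in the other wild-type libraries, with library 3 the lowest, and to 14.1 to 29.4 in the null libraries. Platelet markers (4 of 4) summed to 190 in wild-type library 2, the lowest of the 10. The part of these lists in the values of *Fabp4* was not tested.

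*Slc27a1*, the fatty acid transport protein of muscle and fat (chr8:71568882-71587302, plus strand), had the smallest unadjusted *P* of the 21 genes. Its normalized counts were 209, 204, 227, 206 and 209 in wild-type libraries 1 to 5 and 209, 189, 213, 189 and 180 in null libraries 1 to 5. Null libraries 2, 4 and 5 lay below every wild-type library, and null libraries 1 and 3 among them. The means were 211.1 ± 9.1 and 195.9 ± 14.2 (SD, n = 5 each), with a log2 fold change of −0.11 ± 0.0702 (SE; limma, adjusted *P* = 0.998). *Slc27a4* had means of 476.9 ± 22.2 and 467.2 ± 25.6 (SD, n = 5 each) and a log2 fold change of −0.03 ± 0.053 (SE).

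Activation to acyl-CoA is carried out by the long-chain acyl-CoA synthetases, of which *Acsl1* is known as the main form of adult heart, and *Acsl3* and *Acsl4* as forms of other tissues and of the fetal heart. Of the 5 genes, 1 (*Acsl3*) had a higher mean in null and 4 a lower one. *Acsl1* had means of 489.5 ± 38.4 and 484.2 ± 40.4, *Acsl4* of 507.3 ± 34.2 and 488.7 ± 30.8, and *Acsl5* of 688.8 ± 33.6 and 670.7 ± 27.7 (SD, n = 5 each, wild type first). *Acsl3*, with group means only, stood at 1029 and 1051. The log2 fold changes of the 3 tested genes, −0.02, −0.05 and −0.04, were each smaller than their standard errors of 0.0633, 0.0569 and 0.046.

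*Acsl6* (chr11:54303798-54364756, plus strand; promoter shown above) had the lowest ratio of the 41 genes, and 1 library set it. Its normalized counts were 10.4, 6.78, 30.5, 10.3 and 7.24 in wild-type libraries 1 to 5 and 10.8, 12.1, 10.1, 7.52 and 9.80 in null libraries 1 to 5. Wild-type library 3 was far above the other 9, and the other 4 wild-type libraries lay among or just below the null libraries. The means were 13.1 ± 9.91 and 10.1 ± 1.67 (SD, n = 5 each). The log2 ratio of the means was −0.35 with library 3 and 0.19 without it, and the log2 fold change by limma was −0.15 ± 0.349 (SE; adjusted *P* = 0.998). In the same library *Stmn2*, a protein of growing axons, stood at 575 against 33.1 to 37.8 in the other wild-type libraries, *Tubb3*, neuronal tubulin, at 906 against 47.8 to 98.3, and *Sox10*, a factor of neural crest and glia, at 142 against 9.57 to 13.6. The plot of *Acsl6* beside the summed neuron and glia markers shows both by library.

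**Figure D3:**
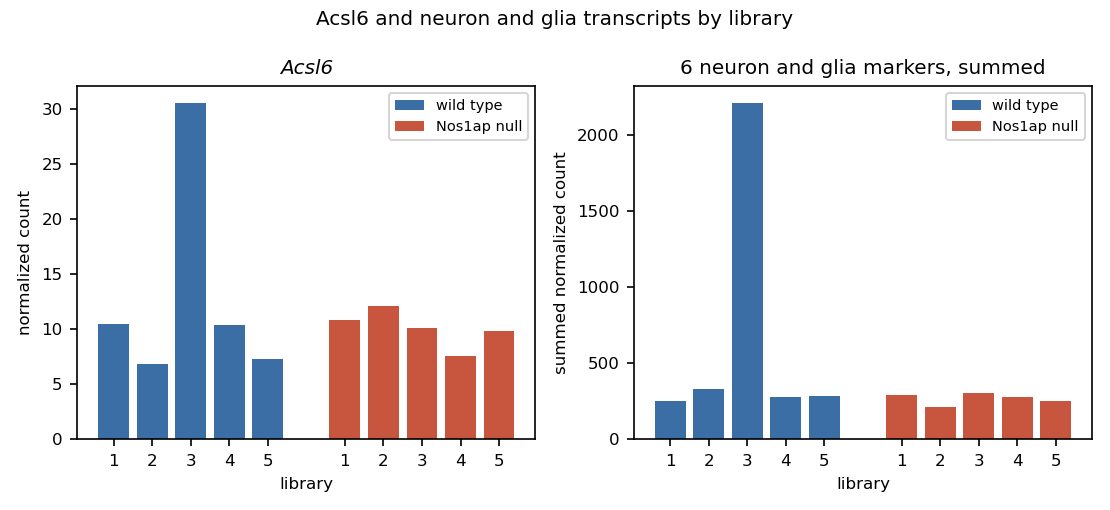
Normalized counts of *Acsl6* (left) and summed normalized counts of 6 neuron and glia markers (right) in each of the 5 wild-type (blue) and 5 *Nos1ap* null (red) libraries. Wild-type library 3 is the highest in both, at 30.5 and 2214.

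The carnitine shuttle consists of the outer membrane transferases *Cpt1a* and *Cpt1b*, the carrier *Slc25a20* and the inner transferase *Cpt2*. The related gene *Cpt1c* was grouped with them here. *Cpt1b* had means of 2681 and 2756 and *Cpt1a* of 792.8 and 774.5 (wild type first). The 3 genes tested, *Cpt1c*, *Cpt2* and *Slc25a20*, had log2 fold changes of −0.09 ± 0.0972, 0.07 ± 0.0545 and 0.02 ± 0.0471 (SE; adjusted *P* = 0.998 for each by limma). *Cpt2* was the highest of these, with normalized counts of 520, 530, 498, 566 and 527 in wild-type libraries 1 to 5 and 568, 604, 504, 525 and 575 in null libraries 1 to 5. Null libraries 1, 2 and 5 were above every wild-type library, and null libraries 3 and 4 were within the wild-type range. *Cpt1c*, the brain form, had counts of 170, 162, 190, 170 and 162 in wild-type libraries and 184, 130, 142, 172 and 184 in null libraries. Null libraries 2 and 3 lay below every wild-type library, and the other null libraries within the wild-type range. For *Cpt1a*, counts could be worked back in wild type only under a wider rule, added after the data were seen, which gave 792.8 ± 80.8 and 774.5 ± 66.3 (SD, n = 5 each) and a log2 fold change of −0.03 ± 0.0732 (SE; adjusted *P* = 0.998).

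Genes of the beta-oxidation spiral had nearly the same means in both genotypes. The log2 ratios of the group means of the 9 genes lay between −0.04 for *Acadvl* and 0.06 for *Echs1*, with 6 above and 3 below 0. The trifunctional protein subunits *Hadha* and *Hadhb* had means of 4103 and 4195, and of 2654 and 2725. Among the chain-length dehydrogenases, *Acadl* (long chain) had 3810 and 3919, *Acadm* (medium chain) 1851 and 1842, *Acadvl* (very long chain) 1020 and 993.4, and *Acads* (short chain) 963.1 and 938.7. Per kb of exon, *Acadl* made up 59.8% of these 4 dehydrogenases in wild type, and 51.3% per kb of principal transcript. *Hadh* (1810 and 1844), *Echs1* (1183 and 1234) and *Acaa2* (1711 and 1754) carry out the later steps for shorter chains.

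*Acads*, the 1 gene of this group tested, had normalized counts of 1044, 987, 905, 961 and 919 in wild-type libraries 1 to 5 and 913, 1031, 930, 864 and 956 in null libraries 1 to 5. Both groups covered nearly the same range, and the log2 fold change was −0.04 ± 0.048 (SE; limma, adjusted *P* = 0.998). Under the wider rule, *Acadvl* and *Echs1* could be tested as well, with log2 fold changes of −0.04 ± 0.0427 and 0.06 ± 0.035 (SE; adjusted *P* = 0.998 for both by limma). *Echs1* had 1183 ± 36.5 in wild type and 1234 ± 49.5 in null (SD, n = 5 each).

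Unsaturated chains need the isomerases *Eci1* and *Eci2* and the reductase *Decr1*, and all 3 were tested. *Eci2*, the gene with the narrowest interval, had normalized counts of 761, 750, 759, 774 and 734 in wild type and 692, 740, 704, 723 and 772 in null. Null libraries 1, 3 and 4 lay below every wild-type library, and null library 5 was close to the highest wild-type value. Its means were 755.9 ± 14.6 and 726.2 ± 31.6 (SD, n = 5 each), with a log2 fold change of −0.06 ± 0.0413 (SE; limma, adjusted *P* = 0.998). *Eci1* had means of 738.4 ± 37.9 and 744.1 ± 55.7, and *Decr1* of 612.7 ± 35.9 and 625.1 ± 17.4 (SD, n = 5 each).

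Electrons leave the dehydrogenases through the flavoprotein of *Etfa* and *Etfb* and its dehydrogenase *Etfdh*. Their means were 1539 and 1581, 1460 and 1450, and 1490 and 1517, with log2 ratios between −0.01 and 0.04 and no test. Per kb of exon, *Etfa* stood at 0.669 of *Etfb* in wild type and 0.692 in null. The annotation places 53% of the exon bases of *Etfb* also in *Gm45233*, so that reads there may be assigned to either. It also places 81.4% of those of *Cpt1b* in *Gm44502*, which was not listed among the genes with counts. *Gm45233* was listed with means of 4.29 and 0.402.

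Malonyl-CoA, made by the acetyl-CoA carboxylases and removed by malonyl-CoA decarboxylase (*Mlycd*), is the known inhibitor of the outer transferases. *Acacb*, the carboxylase at the mitochondrion, had means of 1496 and 1525, and *Acaca*, the cytosolic form, 646.1 ± 40.1 and 623.7 ± 48.5 (SD, n = 5 each). *Mlycd* had normalized counts of 280, 237, 245, 206 and 205 in wild-type libraries 1 to 5 and 229, 248, 237, 233 and 280 in null libraries 1 to 5. The highest value was nearly the same in both groups. Its means were 234.8 ± 31.1 and 245.4 ± 20.7 (SD, n = 5 each), and the log2 fold changes of *Mlycd* and *Acaca* were 0.07 ± 0.0845 and −0.05 ± 0.0561 (SE; adjusted *P* = 0.998 for both by limma).

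Of the 6 regulators, *Ppargc1a*, the PGC-1alpha coactivator of mitochondrial genes, was the only one with a higher mean in null, 1133 against 1052, which was the highest log2 ratio of the 41 genes (0.11) and had no test. Its relative *Ppargc1b* had 240.5 ± 19.5 and 228.8 ± 9.7, *Esrra* 730.4 ± 52.2 and 720.8 ± 48.6, and *Ppard* 369.4 ± 15.5 and 351.8 ± 16 (SD, n = 5 each, wild type first). The log2 fold change of *Ppard*, −0.07 ± 0.0548 (SE), had an interval from −0.18 to 0.04.

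*Pparg*, the PPAR known for adipocytes (chr6:115360951-115490399, plus strand), had normalized counts of 17.4, 10.6, 16.3, 22.7 and 23.8 in wild-type libraries 1 to 5 and 18.9, 14.1, 17.1, 8.59 and 14.2 in null libraries 1 to 5. Wild-type libraries 4 and 5 were above all null libraries, and wild-type library 2 was below all but 1 of them. The means were 18.2 ± 5.31 and 14.6 ± 3.92 (SD, n = 5 each), and the log2 fold change was −0.29 ± 0.268 (SE; limma, adjusted *P* = 0.998). The log2 ratio of the means, −0.30, moved to −0.21 without wild-type library 4, to −0.19 without wild-type library 5 and to −0.17 without null library 4. The interval ran from −0.85 to 0.27, so that neither no difference nor one of the size estimated is outside it.

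*Ppara*, the PPAR known for adult heart and liver (chr15:85734983-85802819, plus strand), had normalized counts of 16.5, 23.2, 11.2, 33.0 and 20.7 in wild-type libraries and 22.5, 21.1, 21.2, 16.1 and 21.8 in null libraries. The wild-type libraries held both the lowest and the highest value. The means were 20.9 ± 8.15 and 20.5 ± 2.54 (SD, n = 5 each), with a log2 fold change of 0.05 ± 0.247 (SE; limma, adjusted *P* = 0.998).

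**Figure D4:**
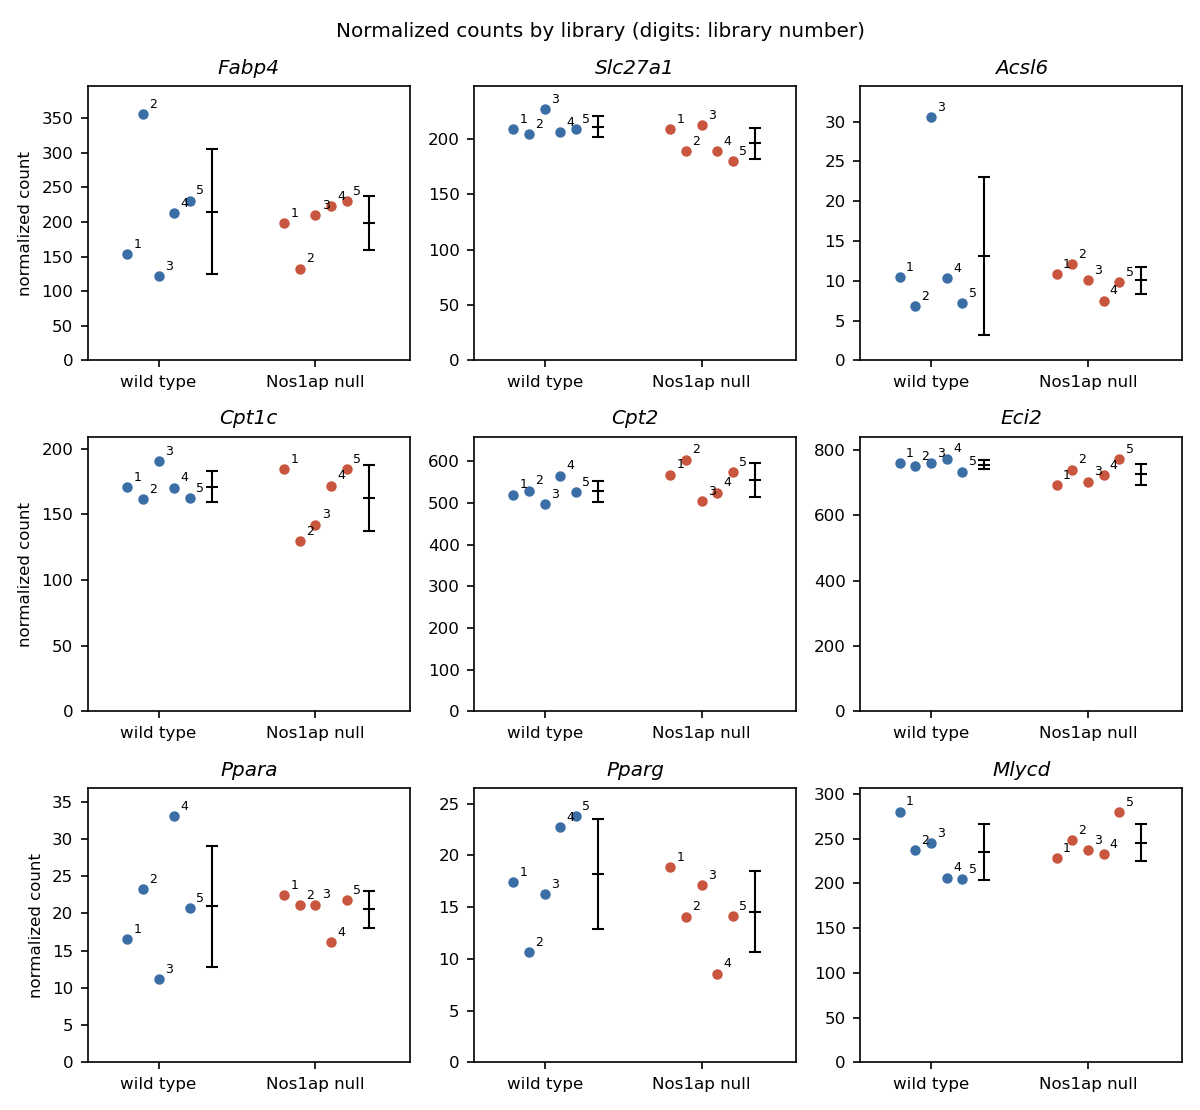
Normalized counts of 9 genes in each library (points, with the library number) and the mean and SD of each genotype (black). Each axis starts at 0. *Acsl6*, *Fabp4*, *Ppara* and *Pparg* spread widely for their level, with wild-type SDs of 75.9%, 41.9%, 38.9% and 29.2% of the mean. *Slc27a1*, *Cpt2* and *Eci2* lie close together, with 4.31%, 4.63% and 1.94%.

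Pairs of isoforms were compared to see which form of an enzyme family prevails in the E13.5 heart, and whether the balance differs between genotypes. For the outer carnitine transferase, *Cpt1b*, the adult muscle form, exceeded *Cpt1a* per kb of exon by 7.66-fold in wild type and 8.07-fold in null, and by 5.04-fold and 5.31-fold per kb of principal transcript. *Cpt1b* made up 85.6% of the 3 *Cpt1* genes per kb of exon in wild type, and 79.1% per kb of principal transcript. *Gm44502*, which shares exon bases with *Cpt1b*, was not listed, as stated above. The overlap comes from GENCODE M21 and the counts from GENCODE M10, so reads of *Gm44502* may be included in those of *Cpt1b*. Likewise *Acacb* exceeded *Acaca* by 4.10-fold in wild type and 4.34-fold in null per kb of exon, and by 2.51-fold and 2.65-fold per kb of principal transcript.

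Among binding proteins, *Fabp3* exceeded *Fabp5* by 5.55-fold per kb of exon in wild type, but by 1.54-fold per kb of principal transcript, and *Fabp4* by 61.1-fold and 12.2-fold. *Acsl3* exceeded *Acsl1* by 5.06-fold per kb of exon in wild type and 5.22-fold in null, and by 2.07-fold and 2.14-fold per kb of principal transcript. The order of *Acsl4* and *Acsl1* depended on the length, with *Acsl4* at 2.01 of *Acsl1* per kb of exon and at 0.765 per kb of principal transcript in wild type. *Acsl5*, in none of the pairs, stood above both under either length. In wild type it took 27.2% of the family per kb of exon and 25% per kb of principal transcript, after *Acsl3* with 45.5% and 40.1%. *Ppard* exceeded *Ppara* by 9.01-fold in wild type and 8.74-fold in null per kb of exon, and by 18.4-fold and 17.8-fold per kb of principal transcript. *Slc27a4* exceeded *Slc27a1* by 2.99-fold and 3.16-fold per kb of exon, and by 1.56-fold and 1.64-fold per kb of principal transcript.

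Ratios within each library could be formed for 3 of the 8 pairs, and none differed between the genotypes beyond the spread between libraries. The log2 ratio of the normalized counts of *Slc27a4* to *Slc27a1* was 1.18 ± 0.0787 in wild type and 1.26 ± 0.145 in null (SD, n = 5 each; exact two-sided permutation test, *P* = 0.317, adjusted over the 3 pairs *P* = 0.698). For *Acsl4* to *Acsl1* it was 0.05 ± 0.113 and 0.02 ± 0.143 (exact permutation *P* = 0.659, adjusted *P* = 0.698). For *Ppard* to *Ppara* it was 4.23 ± 0.633 and 4.11 ± 0.216 (exact permutation *P* = 0.698, adjusted *P* = 0.698). The smallest *P* this test can give with 5 against 5 libraries is 0.00794. The 5 other pairs, among them *Cpt1a* to *Cpt1b*, differed by −0.12 to 0.05 in the log2 ratio of group means (null minus wild type), with no test.

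**Figure D5:**
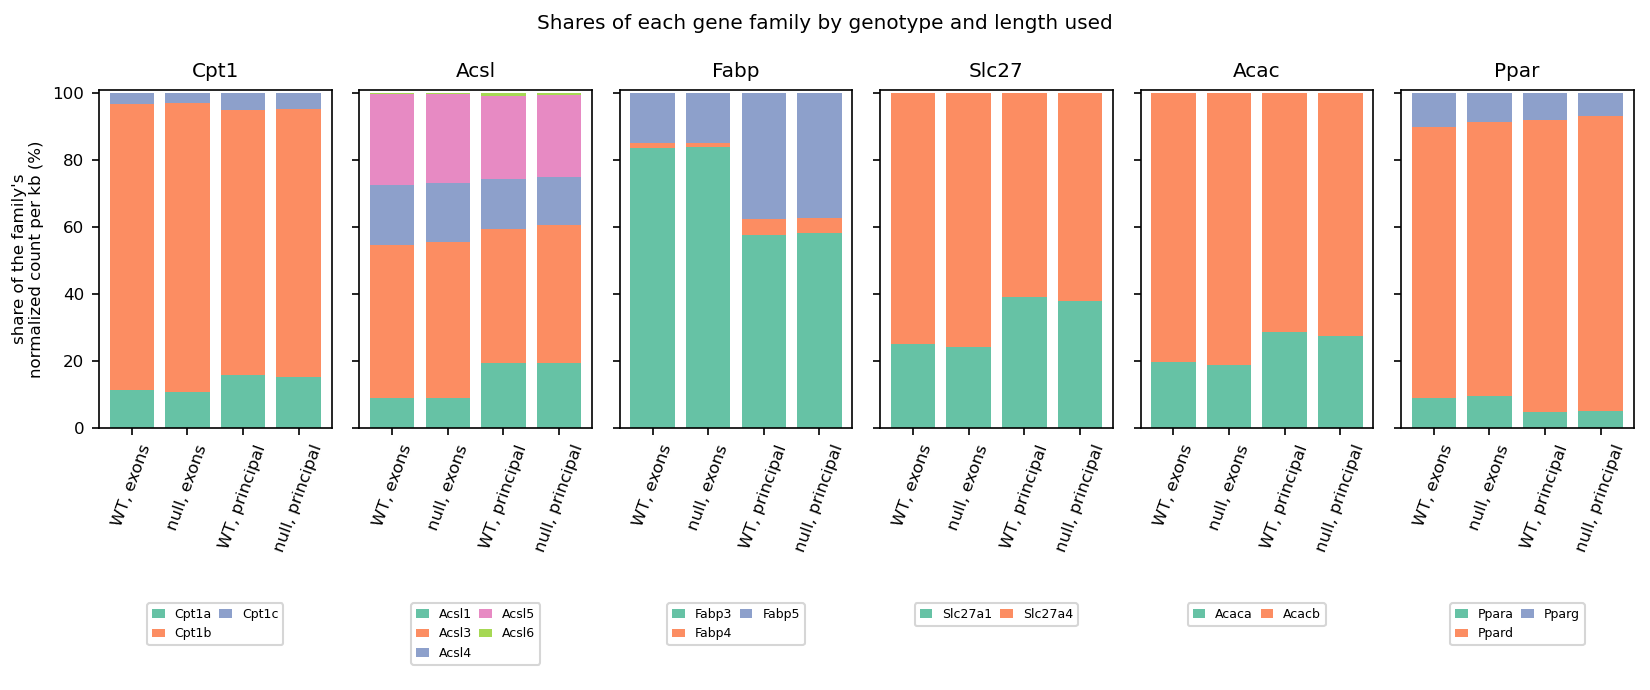
Share of each gene in its family's mean normalized count per kb, in percent, for wild type (WT) and *Nos1ap* null, with the union of exons (exons) or the principal coding transcript (principal) as length. The length used moves some shares: *Fabp3* takes 83.6% of its family per kb of exon and 57.7% per kb of principal transcript in wild type.

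Over the 21 genes with counts, the coefficient of variation between libraries was 6.2% in wild type and 7.25% in null at the median, against 8.36% and 8.1% over all genes tested. Of the 21 genes, 8 rest on the only possible set of counts, as do 5897 of the 10299 genes tested. The set nearest to equal levels, used for the others, favours a small spread, and the genes compared were not matched by mean. Wild-type library 3 was the lowest of the 5 wild-type libraries for 10 of the 21 genes, *Cpt2*, *Slc25a20*, *Acads*, *Eci1* and *Decr1* among them, and the highest for 5, *Acsl6* among them. The 6 mitochondrial genes with counts (those 5 and *Eci2*) summed to 4248, 4165, 3900, 4191 and 4062 in wild-type libraries 1 to 5 and to 4089, 4327, 3930, 3928 and 4281 in null libraries 1 to 5. Both groups ran from about the same lowest value to about the same highest one. Counts of all 6 genes are the sets nearest to equal levels, a choice that favours a small spread and may narrow these ranges.

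A list of 70 other lipid genes, covering synthesis, storage, peroxisomal oxidation, ketone bodies and lipid-sensing receptors, was examined in the same way. Of these, 67 were listed, 61 had a mean of at least 10, and 48 were tested, of which 0 passed and 2 (4.17%) had an unadjusted *P* under 0.05, against 3.52% of all genes tested. The 3 with the smallest *P* were *Gpam*, *Acot7* and *Mgll*. *Gpam*, which starts glycerolipid synthesis from acyl-CoA, had 139 ± 13.5 in wild type and 165 ± 12.6 in null (SD, n = 5 each), a log2 fold change of 0.25 ± 0.086 (SE; limma, adjusted *P* = 0.998). The acyl-CoA thioesterase *Acot7* had a log2 fold change of −0.12 ± 0.0467 and the monoacylglycerol lipase *Mgll* of −0.16 ± 0.0845 (SE; adjusted *P* = 0.998 for both by limma). The median log2 ratio of means over the 61 genes was −0.00881, and 3 of the 61 (4.92%) were past 0.25, against 6.44% of all protein-coding genes: *Gpam* above, and *Fabp7* and *Rxrg* below −0.25. *Fabp7*, the binding protein of brain and glia, had a log2 ratio of the means of −1.18 and a log2 fold change of −0.41 ± 0.621 (SE; limma, adjusted *P* = 0.998). It stood at 107 in wild-type library 3, the library with the neuron and glia transcripts, and between 8.07 and 15.2 in the other 9. Without that library its log2 ratio was 0.28, and that of *Rxrg* moved from −0.28 to −0.03.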

How the data were processed

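Stranded polyA RNA-seq of whole E13.5 hearts from 5 wild-type and 5 *Nos1ap* null males was analysed. The authors trimmed reads with Trimmomatic 0.36, estimated gene counts with RSEM 1.2.31 and STAR on GENCODE M10 transcripts (GRCm38), and used DESeq 1.24.0, with a filter on genes whose counts sum to 1 or less. The signal values analysed are the mean normalized counts of each genotype that the authors deposited. The authors' fold changes, log2 fold changes and *P* values, also in the table, were not used.

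Read counts of single libraries were worked back from group means under 1000, by a search for whole numbers that give the printed mean. All sets were searched below a mean of 300. For higher means the set nearest to equal levels was accepted if the expected number of chance sets as near was 0.01 or less, or 0.05 or less with means up to 1500 under the wider rule. Counts were found for 98.8% of the means under 1000 in each genotype. Of the 21 fatty acid genes tested, 8 rest on the only possible set, and for the other 13 the choice of the nearest set may understate the spread. The test was limma 3.58.1 (R 4.3.3), on protein-coding genes with a mean of 10 or more, applied to log2 (normalized count + 1), with trend and robust moderation, and Benjamini-Hochberg adjustment over all genes tested. Both steps were run on simulated data with the spread of genes whose counts had been worked back, a spread that may be understated. Fold changes on this scale understate changes of low genes. Higher or lower group means are given as values, and a change of sign of a gene that did not pass was not counted as a reversal. *P* values measure the spread between hearts and treat the hearts as independent. The labels do not say whether the embryos share litters, so this could not be checked. Isoform pairs were compared by an exact permutation test over libraries. Lengths, positions and overlaps come from GENCODE M21 on GRCm38. Alternatives changed the pseudocount, the minimum mean, the scaling, the test, the accepted counts, the length and the libraries. Genes named are all 41, and of the 70 other lipid genes those that pass or else the 3 with the smallest *P*; *Fabp7* and *Rxrg* were named after their values were seen. The genes and lists were chosen with earlier results of these data known.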

Additional observations from a re-analysis of the deposited data

Results flagged for a closer look

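In 44 sets of 5 libraries examined, 4 held a library whose distance to the nearest other was more than 0.71 of the whole range, and chance alone flags about 1 set in 20. *Acsl6* in wild-type library 3 stood at 30.5 normalized counts, a gap of 0.846 of the range, in the library with the neuron and glia transcripts. *Slc27a1* in the same library stood at 227 (gap 0.792). *Slc25a20*, the carnitine carrier, in null library 3 stood at 483.9 (gap 0.856), below the other 4 null libraries. *Ppara* in null library 4 stood at 16.1 (gap 0.783). The causes were not tested.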

How the results depend on the processing

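Counts of calls were the same under every setting run: 0 of the fatty acid genes tested and 0 of the other lipid genes tested (42 to 53 of the 70, depending on the setting) passed with another pseudocount, minimum mean, size factors or gene types, with voom, with the wider rule for counts, and without each of the 10 libraries, where the smallest adjusted *P* of a fatty acid gene was 0.865. Requiring that only 1 set of counts is possible left 8 fatty acid and 25 other lipid genes to test, of which 0 passed, and none of the 3 isoform pairs. Genes past 0.25 by group means fell from 2 to 0 at a mean of at least 50, which both genes lie under, and stood at 1 to 2 without each library in turn (an alternative chosen after seeing the data). Without wild-type library 3 they were *Fabp4* and *Pparg*. Without 1 library, the pair differences (null minus wild type, log2) ran from 0.03 to 0.12 for *Slc27a4* to *Slc27a1*, from −0.08 to 0.0029 for *Acsl4* to *Acsl1* and from −0.32 to 0.10 for *Ppard* to *Ppara*, and none passed. The log2 fold change of *Nos1ap* passed in every setting run, and ran from −1.88 to −1.75 without 1 library. Ratios of levels in wild type moved with the length. With the longest transcript, *Cpt1a* to *Cpt1b* was 0.198, *Acsl3* to *Acsl1* 3.02, *Acsl4* to *Acsl1* 1.11, *Fabp5* to *Fabp3* 0.198, *Slc27a4* to *Slc27a1* 1.79, *Acaca* to *Acacb* 0.399 and *Ppard* to *Ppara* 16.2. With the principal transcript, chosen after seeing the data, these were 0.198, 2.07, 0.765, 0.651, 1.56, 0.399 and 18.4, and *Fabp4* to *Fabp3* was 0.082. No paired analysis was possible because the labels give no pairing of wild-type with null hearts. The 17 genes without library counts under either rule, the most abundant enzymes among them, have no error and no test here. Intervals of *Acsl6*, *Fabp4*, *Ppara* and *Pparg* span more than 0.4 on either side of the estimate, and smaller differences of these genes could not be called.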
